A study of Bos taurus with 6 samples.

Results

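The MAP kinase cascade of intramuscular fat (IMF) was described with 58 genes, the rows of the mRNA count table named MAPK, MAP2K, MAP3K, MAP4K or DUSP and a number, of 25444 rows in all. Within the family, membership went by symbol alone, and the members comprise 4 MAP4Ks, 15 MAP3Ks, 7 MAP2Ks, 10 MAPKs and 22 dual-specificity phosphatases (DUSPs). RefSeq for the assembly ARS-UCD2.0 has 67 symbols of this form, and the 10 of them that are no symbol of the table, MAPK6, MAPK11, MAPK12, MAP4K4 and DUSP10 among them, were not analysed here as members. One of the 10, MAP3K20, is in the table under its older symbol ZAK and is given among the other MAP3K-level kinases. The study compared IMF dissected from the sternomandibularis muscle of Chinese Qinchuan males, all slaughtered at 24 months of age, between steers surgically castrated at 6 months and intact bulls. All animals were weaned at 3 months, shared a sire and were fed the same diet. For mRNA there was 1 library per group, made from RNA pooled over 6 animals by the series' design (the labels of these libraries give 3). A pool shows the mean of its animals and no spread between them.

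The steers library held 12677375 counts and the bulls library 9868415. The values used are read counts per gene, scaled between the libraries with median-of-ratios size factors of 1.04 and 0.959, so that the log2 fold change of steers over bulls has its centre near 0 over all genes. These fold changes are given below as log2 ratios, each followed by its 95% Clopper-Pearson interval in brackets. The intervals cover counting error only and are too narrow where reads stem from the same molecule. A gene was called at more than 2-fold and an adjusted p under 0.05 in an exact binomial test of its pair of counts. With 1 library per group the differences have no replicate check, and a call says that 2 pooled libraries differ, not that castration changed the gene. "Rose" and "fell" are used for called genes alone.

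In the MAP kinase cascade, MAP4Ks and MAP3Ks receive signals from receptors, small GTPases and stress, and MAP3Ks phosphorylate MAP2Ks, which in turn phosphorylate the MAPKs on a threonine and a tyrosine. The MAPKs fall into the ERK, JNK and p38 groups, which in fat take part in adipogenesis, lipolysis, insulin signalling and inflammation. A subset of the DUSPs, the MAP kinase phosphatases (MKPs), remove both phosphates again, and several MKP genes are themselves induced by MAPK activity, so their mRNA is part of a feedback loop.

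Of the 58 genes, 9 fell in steers and 2 rose. Over all 17752 genes with a count in either library, 8.13% were called lower and 4.37% higher, beside 15.5% and 3.45% of the 58 members. The genes that fell were MAP4K1, MAP3K1, MAP3K14, MAP2K6, MAPK15, DUSP2, DUSP6, DUSP26 and DUSP27, and those that rose were MAP3K13 and DUSP9. Among the 52 members with at least 20 counts over both libraries, 9 fell and 1 rose, where 9.32% and 4.67% of the 13501 genes with as many counts were called lower and higher. The median log2 ratio was -0.10 over the members and 0.01 over all genes. All members together took 0.160% of the counts in steers (interval 0.158 to 0.162) and 0.235% in bulls (0.232 to 0.238), shares that scale by total counts, and with the size factors their summed counts had a log2 ratio of -0.31. When pools were assumed to vary with a coefficient of variation of 0.2 in an edgeR exact test, 6 members were called lower and 0 higher, the calls of MAP2K6, MAP3K14 and MAPK15 being lost, and with 0.4 DUSP2 alone was called.

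**Figure D1:**
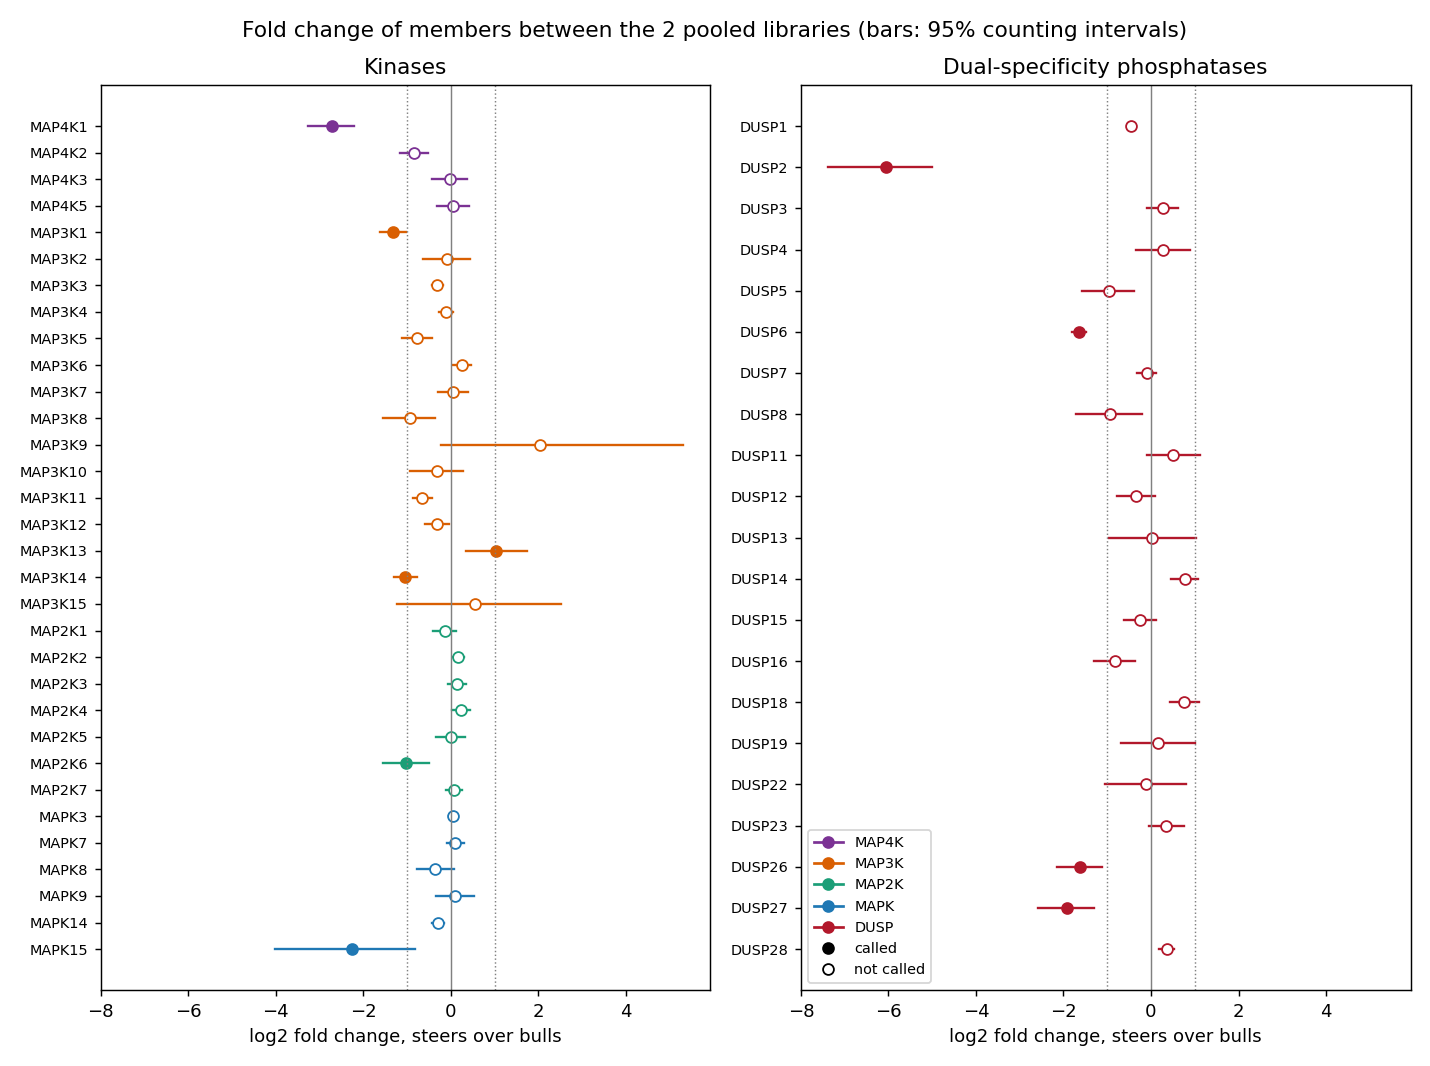
Log2 fold change of steers over bulls (horizontal axis) for kinases (left) and phosphatases (right) counted in both libraries. Points are the 2-library ratios, bars 95% counting intervals, filled points called genes, and dotted lines mark 2-fold. DUSP2 lies farthest to the left at -6.05, while the MAP2Ks and MAPKs shown other than MAP2K6 and MAPK15 lie within the 2-fold lines.

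At the top of the cascade, MAP4K1 fell and the other 3 MAP4Ks were not called. MAP4K1, also named HPK1, is a kinase of haematopoietic cells that restrains T cell receptor signalling. It had 37 counts in steers against 223 in bulls and was 6.56-fold lower in steers (log2 ratio -2.71, interval -3.26 to -2.21). MAP4K2, a kinase of the JNK branch, had 138 and 227 counts and a log2 ratio of -0.84 (-1.16 to -0.53), an interval that lay below 0 although the gene was not called. MAP4K3, a kinase of amino acid and JNK signalling, had 110 and 103 counts (log2 ratio -0.03, interval -0.43 to 0.37). For MAP4K5 the counts were 141 and 125 (0.05, interval -0.31 to 0.41). The interval of MAP4K1, the kinase of blood cell lineages, did not overlap those of the other MAP4Ks. Of 13 T lymphocyte markers, 11 fell as well, with summed counts over the 13 of 209 and 1222, and their part in the fall of MAP4K1 was not tested. In bulk tissue, fewer cells of a type and less RNA per cell cannot be told apart.

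Among the 15 MAP3Ks, 2 fell, 1 rose and 12 were not called, beside 8.13% of all genes called lower and 4.37% higher. The median log2 ratio of the tier was -0.31. MAP3K1 (MEKK1) activates the JNK and ERK branches, and the study measured it by qRT-PCR and examined it as a candidate target of let-7i. It had 135 counts in steers against 311 in bulls, a log2 ratio of -1.33 (-1.63 to -1.03). MAP3K14, known as NIK, drives the non-canonical NF-κB pathway. Its 193 and 364 counts gave -1.04 (-1.30 to -0.78), which lay close to the 2-fold line, and the interval reached across that line. MAP3K13 (LZK), which acts on the JNK branch, was the MAP3K that rose, with 60 counts in steers against 27 in bulls, at 1.03 (0.35 to 1.74). MAP3K13 was also close to the line, and total-count scaling ended its call.

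The primers of the study's qRT-PCR assay for MAP3K1 are shown because this is the member that the study measured by a method other than sequencing. Each is written 5′ to 3′.
MAP3K1 sense primer: ttgtgctaaaccaccttg
MAP3K1 antisense primer: aagagccacatctcgtaaa

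Of the uncalled MAP3Ks, those with intervals wholly below 0 were MAP3K3, MAP3K5, MAP3K8, MAP3K11 and MAP3K12. MAP3K8 (TPL2), which carries inflammatory signals to ERK, had 39 and 69 counts and a log2 ratio of -0.95 (-1.55 to -0.36). MAP3K5 (ASK1), a sensor of oxidative stress, had 122 and 192 counts and -0.78 (-1.12 to -0.44). MAP3K11 (MLK3), a JNK pathway kinase, had 277 and 399 counts and -0.65 (-0.88 to -0.42). MAP3K12 (DLK), the closest relative of MAP3K13, had 214 and 245 counts and -0.32 (-0.59 to -0.05), and thus did not share its sign. MAP3K3, an upstream kinase of ERK5, had the most counts of the tier (981 in steers, 1118 in bulls) and was at -0.31 (-0.44 to -0.19). MAP3K4, which acts on p38 and JNK, was at -0.10 (-0.26 to 0.06) with 634 and 626 counts, and MAP3K6 (ASK2), a partner of ASK1, at 0.25 (0.05 to 0.46) with 453 and 349. These MAP3Ks with many counts all lay well within 2-fold. MAP3K7, or TAK1, which links cytokine and TGF-β receptors to JNK, p38 and NF-κB, had 154 and 136 counts and a log2 ratio of 0.06 (-0.29 to 0.40). The MAP3K tier thus held members on both sides of 0, with 10 of 15 below it. MAP3K2 (63 and 62 counts) was at -0.10 (-0.63 to 0.43) and MAP3K10 (46 and 53), a mixed-lineage kinase, at -0.33 (-0.93 to 0.27). MAP3K9 (9 and 2 counts) and MAP3K15 (8 and 5) were too sparsely counted for their folds to be told from no change.

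Of the 7 MAP2Ks, MAP2K6 fell and the other 6 were within 2-fold. MAP2K6, the p38-specific activator MKK6, had 50 counts in steers against 93 in bulls and fell by 1.02 on the log2 scale (interval -1.54 to -0.51), the called fall closest to the 2-fold line. MAP2K3, the other p38 activator, had 455 and 378 counts and a log2 ratio of 0.15 (-0.05 to 0.35). The ERK activators MAP2K1 and MAP2K2 (MEK1 and MEK2) were at -0.14 (-0.41 to 0.12) and 0.17 (0.04 to 0.30), with 237 and 240 counts for the former and 1067 and 872 for the latter. Those of the JNK branch, MAP2K4 and MAP2K7, were at 0.23 (0.03 to 0.43) with 479 and 375 counts and at 0.07 (-0.11 to 0.25) with 540 and 474. With total counts MAP2K2, MAP2K3, MAP2K4 and MAP2K7 lay below 0, so no direction is given for these MAP2Ks. Apart from MAP2K6, the log2 ratios of the MAP2Ks of all these branches were thus at most 0.23 in size. MAP2K5, the activator of ERK5, had 158 and 146 counts and was at -0.01 (-0.34 to 0.33). The median of the tier was 0.07 and became -0.17 with total counts, a scaling that moved the median of all genes by -0.24.

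Of the MAPKs themselves, MAPK15 fell, and the 6 others with at least 20 counts were within 2-fold. MAPK3 (ERK1) had 2130 counts in steers against 1897 in bulls, a log2 ratio of 0.04 (interval -0.04 to 0.13). As far as counting error goes, the interval of MAPK3 left room for a difference of at most 0.13 on the log2 scale. MAPK7 (ERK5), which unlike MAPK3 has a long C-terminal transactivation region, had 439 and 375 counts and was at 0.11 (-0.10 to 0.31). Of the JNK genes, MAPK8 was at -0.36 (-0.78 to 0.06) with 90 and 106 counts and MAPK9 at 0.09 (-0.33 to 0.52) with 101 and 87. MAPK14, the ubiquitous p38α, had 818 and 928 counts and a log2 ratio of -0.30 (-0.44 to -0.17), below 0 and within 2-fold. With total counts MAPK3, MAPK7 and MAPK9 lay below 0, so no direction is given for these MAPKs, and the median of the tier went from 0.07 to -0.17.

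MAPK15 (ERK8), an atypical MAPK that needs no known MAP2K, was the only MAPK called by the exact binomial test. It had 5 counts in steers against 22 in bulls, a log2 ratio of -2.26 with a wide interval of -4.02 to -0.82, and its call was lost at an assumed coefficient of variation of 0.2. MAPK4 (1 and 0 counts), MAPK10 (2 and 0) and MAPK13 (0 and 1) were at or under the floor of 3 counts in both libraries, and no fold is given for them. MAPK10, or JNK3, is known as the neuronal JNK.

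Of 22 DUSPs, 4 fell and 1 rose, beside 8.13% of all genes called lower and 4.37% higher. All DUSPs together took 0.0733% of the counts in steers (interval 0.0718 to 0.0748) and 0.122% in bulls (0.119 to 0.124). With the size factors their summed counts, 9292 and 12004, had a log2 ratio of -0.49, and DUSP1, which was not called, supplied 6434 and 8084 of them. By class, 7 of the 9 MKPs in the table were below 0, with a median of -0.82. Of the 13 atypical DUSPs 8 were above 0, with a median of 0.15 that turned to -0.09 with total counts (6 above 0). The values of the classes overlapped, with DUSP4 of the MKPs at 0.28 and DUSP27 of the atypical DUSPs at -1.93. The difference between these DUSP classes was not tested.

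DUSP2 had the largest fold change of all members counted in both libraries. DUSP2, or PAC-1, is a nuclear phosphatase induced in activated lymphocytes and other leukocytes. It had 7 counts in steers against 426 in bulls, and was 66.2-fold lower in steers (log2 ratio -6.05, interval -7.37 to -4.99). DUSP2 was called with each scaling tried and with assumed coefficients of variation of 0.1, 0.2 and 0.4. As for MAP4K1, the lower T lymphocyte (209 and 1222), B lymphocyte (26 and 97) and myeloid (20842 and 44104) marker sums stand beside this fall. The intervals of the other inducible nuclear MKPs did not overlap that of DUSP2. DUSP1 (MKP-1), an immediate early gene that dampens p38 and JNK, had 6434 counts in steers against 8084 in bulls and a log2 ratio of -0.45 (-0.50 to -0.40), which was precise and within 2-fold. DUSP5, a nuclear phosphatase of ERK, had 40 and 72 counts and lay just within the line at -0.97 (-1.57 to -0.39). DUSP4, a close relative of DUSP1, had 54 and 41 counts and a log2 ratio of 0.28 (-0.34 to 0.90).

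Among the cytoplasmic phosphatases of ERK, DUSP6 fell, DUSP7 was not called and DUSP9 rose. DUSP6, or MKP-3, is a feedback inhibitor of ERK whose mRNA is commonly read as a mark of ERK activity. It had 481 counts in steers against 1381 in bulls, a log2 ratio of -1.64 (interval -1.80 to -1.49), so it was 3.12-fold lower in steers. The myeloid (20842 and 44104) and T lymphocyte (209 and 1222) marker sums were lower in the same library, and their part in the fall of DUSP6 was not tested. DUSP7 had 379 and 373 counts and was at -0.10 (-0.31 to 0.11), so counting error left it indistinguishable from no difference. DUSP9 (MKP-4), a phosphatase linked to insulin action in fat, had 10 counts in steers against 0 in bulls. Set against a floor of 3 counts in the bulls library, DUSP9 was 3.06-fold higher in steers, a value that leaves out the counting error of its 10 counts. The lower end of its counting interval, with the bulls count taken as observed, was 2.06-fold. Its low count put it below the minimum of 20, and its call was lost at an assumed coefficient of variation of 0.2.

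The MKPs that prefer JNK and p38, DUSP8 and DUSP16, were both below 0 and were not called. DUSP8 had 25 and 44 counts and a log2 ratio of -0.94 (-1.71 to -0.20), and DUSP16 (MKP-7) had 64 and 104 counts and -0.82 (-1.30 to -0.36). With total counts both passed the 2-fold line and were called, as was DUSP5.

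Of the 13 atypical DUSPs, which are mostly small phosphatases without the MAPK-binding domain and often act on substrates other than MAPKs, 2 fell and 11 were not called. DUSP27, a skeletal muscle protein thought to lack phosphatase activity, which RefSeq now lists under another symbol, had 28 counts in steers against 98 in bulls, a log2 ratio of -1.93 (-2.59 to -1.31). DUSP26, expressed in brain, heart and muscle, had 45 and 127 counts and -1.62 (-2.14 to -1.12). DUSP13, also a gene of muscle and testis, had 20 and 18 counts and 0.03 (-0.96 to 1.03), and was not called.

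The highest folds among the uncalled atypical DUSPs were those of DUSP14 and DUSP18. DUSP14 (MKP-6), a brake on T cell and TAK1 signalling, had 256 counts in steers against 138 in bulls, a log2 ratio of 0.77 (0.47 to 1.08). DUSP18 had 220 and 119 counts and 0.76 (0.44 to 1.10). For DUSP28 the counts were 620 and 445 and the log2 ratio was 0.36 (0.18 to 0.54). The intervals of these DUSP genes lay above 0, and the central values were within 2-fold. With total counts, which moved the median of all genes by -0.24, DUSP28 was at 0.12, so no direction is given for DUSP28. DUSP3 (VHR), which acts on ERK and JNK, had 161 and 123 counts and was at 0.27 (-0.08 to 0.62). DUSP3, DUSP11, DUSP12, DUSP15, DUSP19, DUSP22 and DUSP23 had intervals that included 0, with log2 ratios from -0.34 for DUSP12 to 0.51 for DUSP11.

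**Figure D2:**
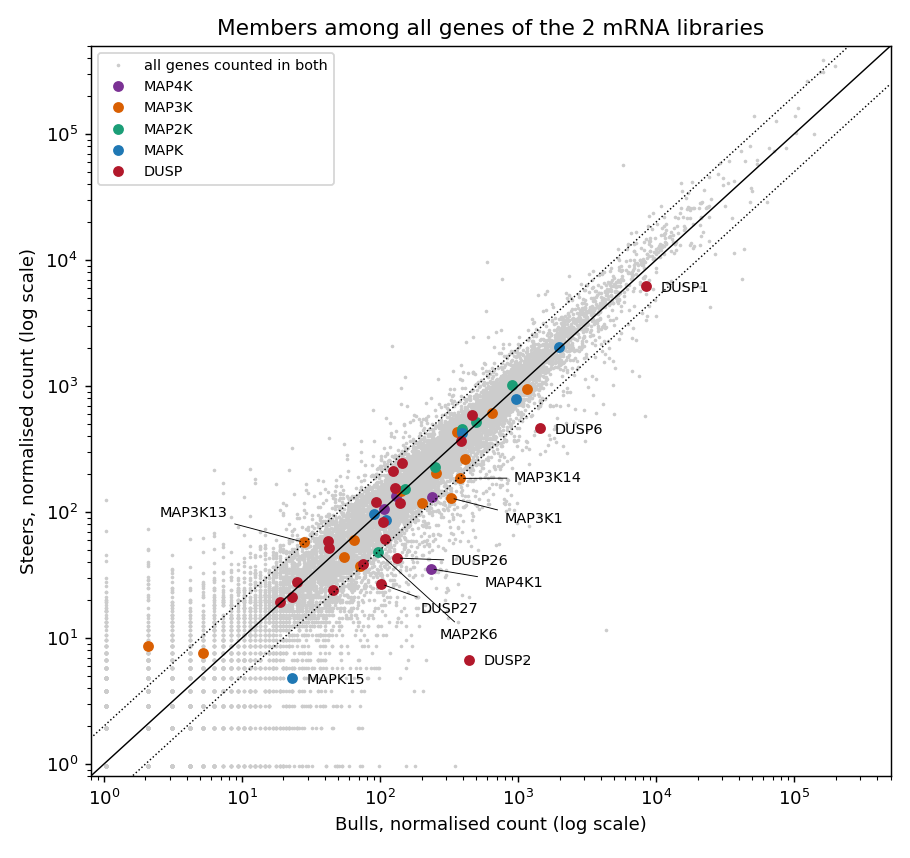
Normalised counts of bulls (horizontal) and steers (vertical), both on log scales, for all genes counted in both libraries (grey) and for the members by tier (colours). The solid line marks equality and dotted lines 2-fold; called members and DUSP1 are named. DUSP2 and MAP4K1 lie well below the lower dotted line, and DUSP1 has the highest normalised count of the members, 6167 in steers and 8434 in bulls.

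Over all 42 uncalled members with at least 20 counts, the median log2 ratio was -0.02 and the values ran from -0.97 for DUSP5 to 0.77 for DUSP14. The counting interval included 0 for 25 of them, lay below 0 for 11 and above 0 for 6. DUSP1 alone made up 31.7% of the members' counts in steers and 34.9% in bulls. Without it the members' summed counts were 13876 and 15088, a log2 ratio of -0.24.

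Genes that act around the cascade were given from lists written from general knowledge. The numbers called in these lists stand beside 8.13% of all genes called lower and 4.37% called higher. The RAS and RAF layer passes receptor signals to the MEKs, and of its 14 genes with a count, 1 rose and 0 fell by the exact binomial test, with a median log2 ratio of 0.08 that turned to -0.16 with total counts. RRAS2, a RAS-related GTPase, was the gene that rose, a call lost with total counts, with 68 counts in steers against 30 in bulls (1.06, interval 0.42 to 1.73). SHC1, an adaptor of receptor kinases with the most counts of the list, had 3664 and 1984 counts and 0.76 (0.68 to 0.84).

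Of 15 scaffolds and adaptors, 2 fell and 0 rose, beside 8.13% and 4.37% of all genes, with a median of -0.19. ARRB2, a β-arrestin that also scaffolds MAPK modules, had 183 and 439 counts and a log2 ratio of -1.38 (-1.64 to -1.13). CNKSR1, a scaffold of RAF, had 2 and 19 counts, a ratio of -3.37 on the log2 scale with a counting interval of -6.52 to -1.32. IQGAP1, which binds MEK and ERK, had 5833 and 5056 counts and was at 0.08 (0.03 to 0.14). With total counts, which moved the median of all genes by -0.24, 3 of the 15 scaffolds and adaptors were above 0 instead of 7. That shift was larger in size than the ratio of IQGAP1, so no direction is given for IQGAP1.

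Among the 10 kinases that MAPKs activate, RPS6KA1 fell and the other 9 were not called, beside 8.13% of all genes called lower. RPS6KA1 (RSK1), a direct substrate of ERK, had 193 counts in steers against 701 in bulls and a log2 ratio of -1.98 (-2.22 to -1.75). RPS6KA3 (RSK2), of the same family, was at -0.99 (-1.42 to -0.57) with 75 and 137 counts, and it was called lower with TMM or total-count scaling, which made 2 of 10. The leukocyte marker sums given below were also lower in steers, and their part in the falls of ARRB2, CNKSR1 and RPS6KA1 was not tested. The p38 substrate MAPKAPK2 (MK2) had 874 and 850 counts and was at -0.08 (-0.22 to 0.06). None of the 7 other MAPK phosphatases, 8 ERK pathway inhibitors and 4 other MAP3K-level kinases with a count was called by the exact binomial test. The Sprouty genes SPRY2 and SPRY4, which like DUSP6 are ERK-induced feedback inhibitors, were at -0.03 (-0.26 to 0.19) and 0.13 (-0.09 to 0.35), while SPRY1 was at -0.74 (-0.90 to -0.58). The median of the inhibitors was -0.08, and the intervals of SPRY1, SPRY2 and SPRY4 did not overlap that of DUSP6. SPRY3, with 2 counts in each library, had an interval of -3.91 to 3.66 that contained it. The most counted genes of these lists were PPP2CA, a catalytic subunit of the phosphatase PP2A, at -0.17 (-0.33 to -0.01) with 645 and 666 counts, PEBP1, an inhibitor of RAF signalling, at 0.62 (0.56 to 0.67) with 6364 and 3817, and the JNK and p38 pathway kinase TAOK2 at 0.08 (-0.08 to 0.23) with 734 and 639. ZAK, a kinase of the ribotoxic stress response, had 84 and 105 counts and was at -0.44 (-0.88 to -0.02). The medians of the other phosphatases and of the MAP3K-level kinases were -0.17 and -0.43.

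Most of the immediate early and AP-1 genes listed encode transcription factors at the nuclear end of the cascade. Of the 13 with a count, 6 fell, 0 rose and 7 were not called, beside 8.13% of all genes called lower. All 13 were below 0, with a median of -0.77, and the interval of IER2 included 0 (-0.53 to 0.01). The leukocyte and muscle marker sums given below were lower in the same library, and their part in these falls was not tested. FOS had 3029 counts in steers against 6525 in bulls (-1.23, interval -1.29 to -1.17), and JUN, a target of JNK, had 2774 and 5383 (-1.08, interval -1.15 to -1.01). ATF3, a stress-induced factor, had 62 and 364 counts and fell by 2.68 on the log2 scale. FOSB (477 and 1754 counts), EGR3 and FOSL1 were the other genes that fell, while EGR1 was at -0.77 (-0.86 to -0.68) and JUNB at -0.45 (-0.62 to -0.28). A further list, of 8 genes whose mRNA follows ERK output in tumour cells, had a median of 0.05 (-0.19 with total counts) and 1 gene called, PHLDA1, which rose with 325 and 147 counts, a call lost with total counts (1.02, interval 0.74 to 1.31). That list holds no members, so DUSP6 at -1.64 and DUSP4 at 0.28 are not in its median. ETV5 of that list was at -0.16 (-0.39 to 0.08), CCND1 at 0.44 (0.23 to 0.64) and EPHA2 at -0.61 (-0.87 to -0.34). Intervals lay above 0 for 2 of the 8 genes and below 0 for 1. SPRY2 and SPRY4 belong to both the inhibitor and the output lists.

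**Figure D3:**
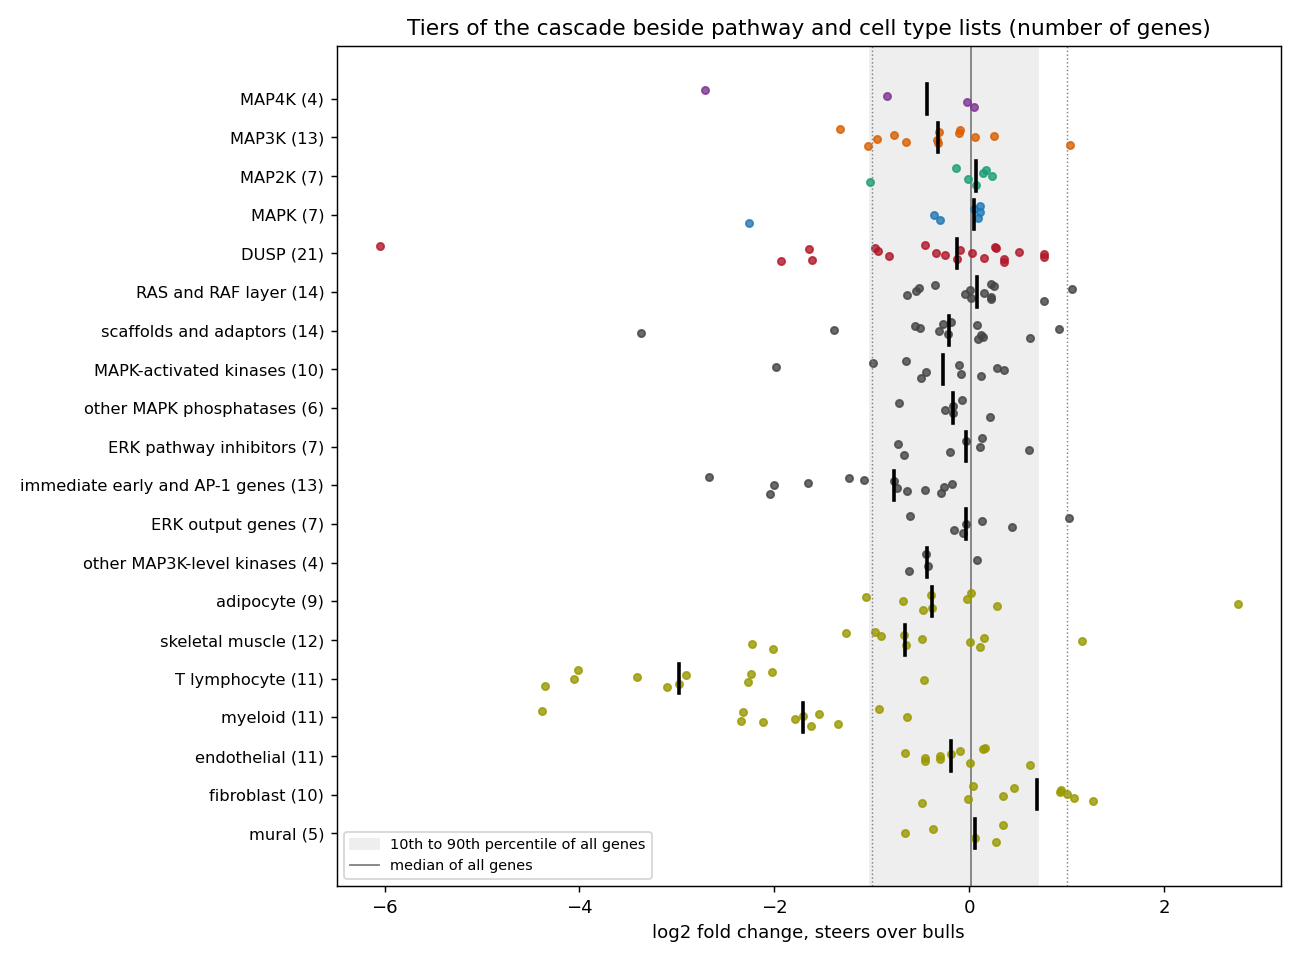
Log2 fold change of steers over bulls (horizontal axis) for genes with at least 20 counts and a count in both libraries, by tier of the cascade (colours), pathway list (dark grey) and cell type list (olive), with the number of genes in brackets. Black bars are medians, and grey shading spans the 10th to 90th percentile of all genes, -1.02 to 0.71. The B lymphocyte and erythroid lists are not drawn. The MAP2K and MAPK medians lie near 0, and of the lists drawn the T lymphocyte and myeloid medians lie farthest to the left.

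Markers of several cell types differed between the same libraries. Fat was the labelled tissue, and adipocyte markers were well counted in both, with 4513 and 6651 counts for ADIPOQ, 4499 and 5386 for PLIN1 and 9931 and 7501 for CIDEC. Of 13 T lymphocyte markers, 11 fell and 0 rose, and their summed counts were 209 in steers and 1222 in bulls, with CD3E the most counted (35 and 253), followed among called genes by CD8B (18 and 142), LCK (14 and 137) and CD3D (25 and 111), and CD3G at 0 in steers against 34 in bulls. Of 11 myeloid markers with a count, 9 fell, with sums of 20842 and 44104 and CSF1R the most counted (7057 and 12309). The most counted myeloid genes that fell were C1QA (3487 and 8137), C1QB (2414 and 6815), CD14 (534 and 2490) and C1QC (534 and 2124). The B lymphocyte markers summed to 26 and 97 counts with CD22 the most counted, 1 of 5 with a count fell (2 with TMM or total-count scaling), PAX5 was at 0 counts against 1 in bulls, and MS4A1 and CD79B were at 0 in both. The sums of these leukocyte markers were lower in steers. So were MAP4K1, DUSP2, DUSP6, MAP3K14, MAP3K1 and MAPK15, and from the pathway lists ARRB2, CNKSR1 and RPS6KA1. The part of the leukocyte markers in those falls was not tested.

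Skeletal muscle markers summed to 35615 counts in steers against 53595 in bulls, a log2 ratio of -0.71, with ACTA1 the most counted (13852 and 19910). Of 12 muscle markers, 3 fell and 1 rose, beside 8.13% and 4.37% of all genes (5 fell with total counts). DES (3721 and 8207 counts) fell by 1.26, the slow-fibre genes MYH7 and TNNT1 fell by 2.23 and 2.01 on the log2 scale, MYH1 of fast fibres rose by 1.15 (a call lost with total counts), and MYH2 was at 0.01. Muscle transcripts were thus present in the dissected fat of both groups, and their part in the falls of DUSP26, DUSP27 and MAP2K6 was not tested. Of the remaining lists, the 11 endothelial and 5 mural genes had 0 calls by the exact binomial test and medians of -0.19 and 0.05, the latter -0.18 with total counts, and their most counted genes were PECAM1 and PDGFRB. For 10 fibroblast genes, whose most counted gene was COL3A1, 3 rose (COL3A1, COL1A1 and SPARC; 2 with TMM and 1 with total counts) and the median was 0.69. The fibroblast genes made up 11.5% of all counts in steers and 6.92% in bulls. Among 9 adipocyte genes, CIDEA rose (998 and 136 counts) and FABP4 fell (3951 and 7574), and the median was -0.38. The erythroid markers summed to 37 and 7 counts, with HBB the gene that rose (21 counts and 1) and ALAS2 at 0 in both.

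In the gene order of ARS-UCD2.0, MAPK13 and MAPK14 are next to each other, and no other pair of the 57 members matched by symbol is adjacent among protein-coding genes. DUSP27, which RefSeq lists under another symbol, was left out here. The other 8 members that fell had 10 direct neighbours with a count, which included 1 gene called lower and 0 called higher. Over all genes with a count, 8.13% were called lower and 4.37% higher, so 1 of 10 is near that share. The neighbour called lower was ARHGAP27, beside MAP3K14, with 83 counts in steers against 194 in bulls (-1.35, interval -1.74 to -0.97). STARD7, beside DUSP2, had 1015 and 563 counts and a log2 ratio of 0.73 (0.58 to 0.88), so the fold of DUSP2 did not extend to it. The neighbours of DUSP6, KITLG and POC1B, were at -0.10 (-0.65 to 0.46) and -0.65 (-1.13 to -0.17).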

How the data were processed

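The mRNA libraries were made from total RNA pooled within each group and sequenced on an Ion Proton. The authors removed adaptors and low-quality reads, aligned the rest to the bovine genome (Bos 4.6.1 in the study's methods) with MapSplice and deposited raw counts per gene. The submitters' processing notes also name BWA and GRCh37.p13, a human build. How reads were assigned to genes, and whether strand was used, is not given in the sources used here, so overlapping or antisense genes cannot be told apart. The miRNA counts of the other 4 libraries were not used here.

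Counts were scaled by median of ratios (numpy 2.4.6) and compared with a two-sided exact binomial test (scipy 1.17.1), doubling the smaller tail, with Benjamini-Hochberg adjustment over all genes with a count in either library. Medians used a prior of 0.5 counts. Alternatives were other scalings, a minimum of 20 counts, no fold threshold, a prior of 5 counts and edgeR 4.0.16 exact tests with assumed coefficients of variation of 0.1, 0.2 and 0.4. The test was checked on simulated data that held counting error only, so the check does not cover variation between pools. EBSeq, used by the study, was not used. Values of some genes are not reported here, though they enter the counts and medians. Named genes were all called members, up to 4 with the most counts per role group, those at 0 in 1 library and those nearest 2-fold. Others named were chosen after their values were seen. For pathway lists, up to 4 called genes per direction and the most counted gene were named. The gene family and the lists were chosen with earlier results of these data known, and members within the family by symbol.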

Additional observations from a re-analysis of the deposited data

How the results depend on the processing

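With 1 pooled library per group there is no estimate of animal-to-animal spread, and genes with few counts, such as MAPK15 and DUSP9, have wide counting intervals. With TMM or upper-quartile scaling the same 9 members were called lower and the same 2 higher. With total counts 15 members were called lower, with DUSP5, DUSP8, DUSP16, MAP3K5, MAP3K8 and MAP4K2 added, and 1 higher, the median of all genes shifted by -0.24, and the called share of higher genes over the whole table (539 higher, 2006 lower) was 21.2% instead of 35.0% (776 and 1444). A minimum of 20 counts left 1 member called higher. Without the fold threshold 19 members were lower and 7 higher, and 3254 and 3535 of all genes. With an assumed coefficient of variation of 0.2 in edgeR's exact test, 6 members were lower and 0 higher, and 762 of all genes were lower and 368 higher. With 0.4, 1 member was lower (DUSP2) and 0 higher, with 93 and 52 of all genes. Total counts reversed uncalled members near 0, among them MAP2K2 (-0.0702), MAP2K3 (-0.0939), MAP2K4 (-0.00823), MAP2K7 (-0.17), MAP4K5 (-0.19), MAPK3 (-0.19), MAPK7 (-0.13) and MAPK9 (-0.15). No paired analysis was possible because each group has 1 mRNA library.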
